A study of Mus musculus with 12 samples.

Results

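The 9 genes described here encode transcription factors that form and maintain fat cells. They are the peroxisome proliferator-activated receptors (Ppara, Ppard and Pparg), the retinoid X receptors (Rxra, Rxrb and Rxrg) and 3 CCAAT/enhancer-binding proteins (Cebpa, Cebpb and Cebpd). They were taken by name, whatever their values, from an expression table of 24452 genes, and all 9 passed the filter on low values that left 12249 genes for testing. RNA was sequenced from the brown adipose tissue of male C57BL/6J Bom mice aged 12 weeks, kept at 30 °C, a warmth at which mice need little heat from brown fat. The 4 groups held 3 libraries each. WT_PBS and WT_CL came from mice with floxed Esrra and Esrrg, the genes of the estrogen-related receptors ERRα and ERRγ, but with no Cre. ERRKO_PBS and ERRKO_CL came from littermates (ERRαγAd-/-) in which a Cre under the adiponectin promoter deletes both genes in fat cells, so that the other cells of the tissue keep them. The CL groups had received CL316,243, which stimulates the β3-adrenergic receptor of fat cells, at 1 mg/kg into the peritoneum once a day for 10 days, and the PBS groups had received the vehicle. Dosing began at 10 to 11 weeks of age, with injections 4 hours after lights on (ZT 4), and tissue was taken 24 hours after the last dose. Whether each library stands for its own mouse is not in the labels, and p-values rest only on the scatter among these libraries, part of which may be technical.

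As background, a PPAR binds DNA as a pair with an RXR, on repeats of the receptor element AGGTCA, and is switched on by fatty acids and their derivatives. PPARγ is required for fat cells to form, PPARα drives the burning of fatty acids and is abundant in brown fat, and PPARδ is present in most tissues. C/EBPβ and C/EBPδ act early in fat cell formation and induce C/EBPα and PPARγ, which then maintain each other. ERRα and ERRγ bind an extended form of the same receptor element, TCAAGGTCA, and drive genes of mitochondria and fatty acid oxidation.

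The stretches before the start sites of Rxra and Rxrb, which differed between genotypes in opposite directions, and of Cebpb, which differed most with CL316,243 in WT mice, are printed here. They are the 250 bases before a start site in RefSeq (build GRCm38.p6), all on the plus strand and none within an annotated exon of the gene. A second start site of Rxrb is not shown, because all 250 bases before it lie in exons of the gene. Rxra has 2 such start sites, at chr2:27676951-27677200 and chr2:27709042-27709291, both inside the annotated span of the gene. The stretch of Rxrb is chr17:34031562-34031811 and that of Cebpb is chr2:167688665-167688914, and both end just before the first annotated base of their gene. Capitals mark matches, on either strand, to 6 motifs: the ERR elements TCAAGGTCA and AAGGTCA, the receptor element AGGTCA, the C/EBP element TTGCNNAA, and the cAMP elements TGACGTCA and TGACG. The motif AGGTCA lies within AAGGTCA, which lies within TCAAGGTCA, and TGACG lies within TGACGTCA, so that their matches overlap.
Rxra, start site 1: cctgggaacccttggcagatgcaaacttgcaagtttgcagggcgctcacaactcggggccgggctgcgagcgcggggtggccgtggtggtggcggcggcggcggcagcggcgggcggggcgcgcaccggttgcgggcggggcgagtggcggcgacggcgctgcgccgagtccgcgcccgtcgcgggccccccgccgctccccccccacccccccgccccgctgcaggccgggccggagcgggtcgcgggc
Rxra, start site 2: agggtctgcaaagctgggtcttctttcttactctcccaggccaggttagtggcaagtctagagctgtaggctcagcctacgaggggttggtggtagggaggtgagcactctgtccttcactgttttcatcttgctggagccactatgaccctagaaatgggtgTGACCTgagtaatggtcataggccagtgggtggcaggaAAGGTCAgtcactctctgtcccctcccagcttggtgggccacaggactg
Rxrb, start site 1: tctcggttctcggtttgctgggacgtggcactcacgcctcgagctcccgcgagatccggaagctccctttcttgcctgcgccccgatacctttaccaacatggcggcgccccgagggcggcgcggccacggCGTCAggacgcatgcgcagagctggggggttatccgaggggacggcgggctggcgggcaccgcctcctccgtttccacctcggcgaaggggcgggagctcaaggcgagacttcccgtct
Cebpb: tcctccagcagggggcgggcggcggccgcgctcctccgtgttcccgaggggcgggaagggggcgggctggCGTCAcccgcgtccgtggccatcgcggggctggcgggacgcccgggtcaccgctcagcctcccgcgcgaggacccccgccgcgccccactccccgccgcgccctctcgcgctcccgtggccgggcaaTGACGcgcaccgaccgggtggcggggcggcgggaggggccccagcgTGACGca

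Motifs were counted in RefSeq windows from 250 bases before to 50 bases after each start site, of which 13 belong to 8 of the 9 genes, all but Cebpd. The Rxra window at start site 1 held none of the 6 motifs, and that at start site 2 held AAGGTCA at position -49 and AGGTCA on the minus strand at -87. The motif AAGGTCA was present in 4.72% and AGGTCA in 16.3% of all 32851 windows. Among the 13 windows AAGGTCA was also found at -89 in the window of start site 2 of Rxrg, and the full TCAAGGTCA, present in 0.423% of all windows, was found in none of the 13. The Cebpb window held TGACG 3 times, at -180 on the minus strand and at -53 and -7. TGACG was present in 20.8% of all windows and was also found once each in windows of Ppara, Ppard and Rxrb, while the full TGACGTCA, present in 1.79%, was found in none of the 13. TTGCNNAA, present in 10.8% of all windows, was found in windows of Rxrg and Pparg, AGGTCA also in windows of Pparg, and the Cebpa window held no motif. These are matches of letters and do not show that a factor binds.

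Whole reads recovered from the authors' second table, summed over its 12380 genes, were 8478310 to 9727167 in the 6 WT libraries. They were 12468001 to 13263567 in the 6 ERRKO libraries. These sums cover those genes only and are not the depth of the whole libraries. Levels are RPKM, that is reads per kilobase of gene adjusted for library size. Ppara had 6255 reads at 51.5 RPKM in WT_PBS library 1 and 2985 reads at 24.4 RPKM in ERRKO_PBS library 1. The library sizes behind these RPKM were thus close, unlike the sums. On the deposited RPKM scale the median gene was 0.53 higher (log2) in ERRKO_PBS than in WT_PBS, 0.63 higher in ERRKO_CL than in WT_CL, and lower by -0.26 with CL316,243 in WT and by -0.16 in ERRKO. Libraries were therefore brought to a common median gene before testing, differences are relative to that gene, and the deposited scale is given beside those of named genes where it turns a call. Esrra was at 41.7 to 83.2 scaled RPKM in the WT libraries and 5.26 to 8.90 in the 6 labelled ERRKO. Esrrg, given over the whole gene and not over the deleted part, was 6.89 ± 2.15 in WT_PBS and 3.54 ± 1.21 in ERRKO_PBS, but 6.92 ± 1.26 in WT_CL and 7.03 ± 0.951 in ERRKO_CL (SD, n = 3). The genotype labels of the CL groups are thus matched by Esrra and not by Esrrg. All 6 adipocyte markers and all 6 brown adipocyte markers were detected in every group, so the tissue carries the labelled markers. The summed brown adipocyte markers ran from 2405 to 4149 scaled RPKM in WT_PBS and from 374 to 673 in ERRKO_PBS, and after CL316,243 from 6027 to 7784 in WT and from 1167 to 1487 in ERRKO. Of these 6 markers, 4 were called lower in ERRKO_PBS than in WT_PBS and 5 in ERRKO_CL than in WT_CL, and 0 higher. Ppargc1a differed by 0.35 and 0.29 (log2), not called, and Elovl3 was at 0 in its lowest library. Markers of 8 skeletal muscle genes summed to 5.99 to 330 in WT and 87.7 to 2703 in ERRKO libraries, highest in ERRKO_PBS library 3. In bulk tissue, fewer cells of a type and less RNA per cell cannot be told apart.

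Levels per length differed widely among the 9 genes. Cebpa was the most abundant, with a mean over the 12 libraries of 339 scaled RPKM (place 153 of the 12249 genes tested), followed by Pparg at 121 (place 430), Cebpb at 61.4 and Ppara at 46.4. Rxra at 21.9 and Rxrb at 15.6 stood in the middle. Rxrg at 7.29, Ppard at 5.99 and Cebpd at 2.88 were low, and Cebpd rested on as few as 42 reads in a library. The highest library exceeded the lowest by 11.4-fold for Ppara, 3.70-fold for Rxra, 3.57-fold for Cebpb and 3.07-fold for Cebpd. For the other 5 genes the same ratio lay between 1.62 and 2.23.

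**Figure D1:**
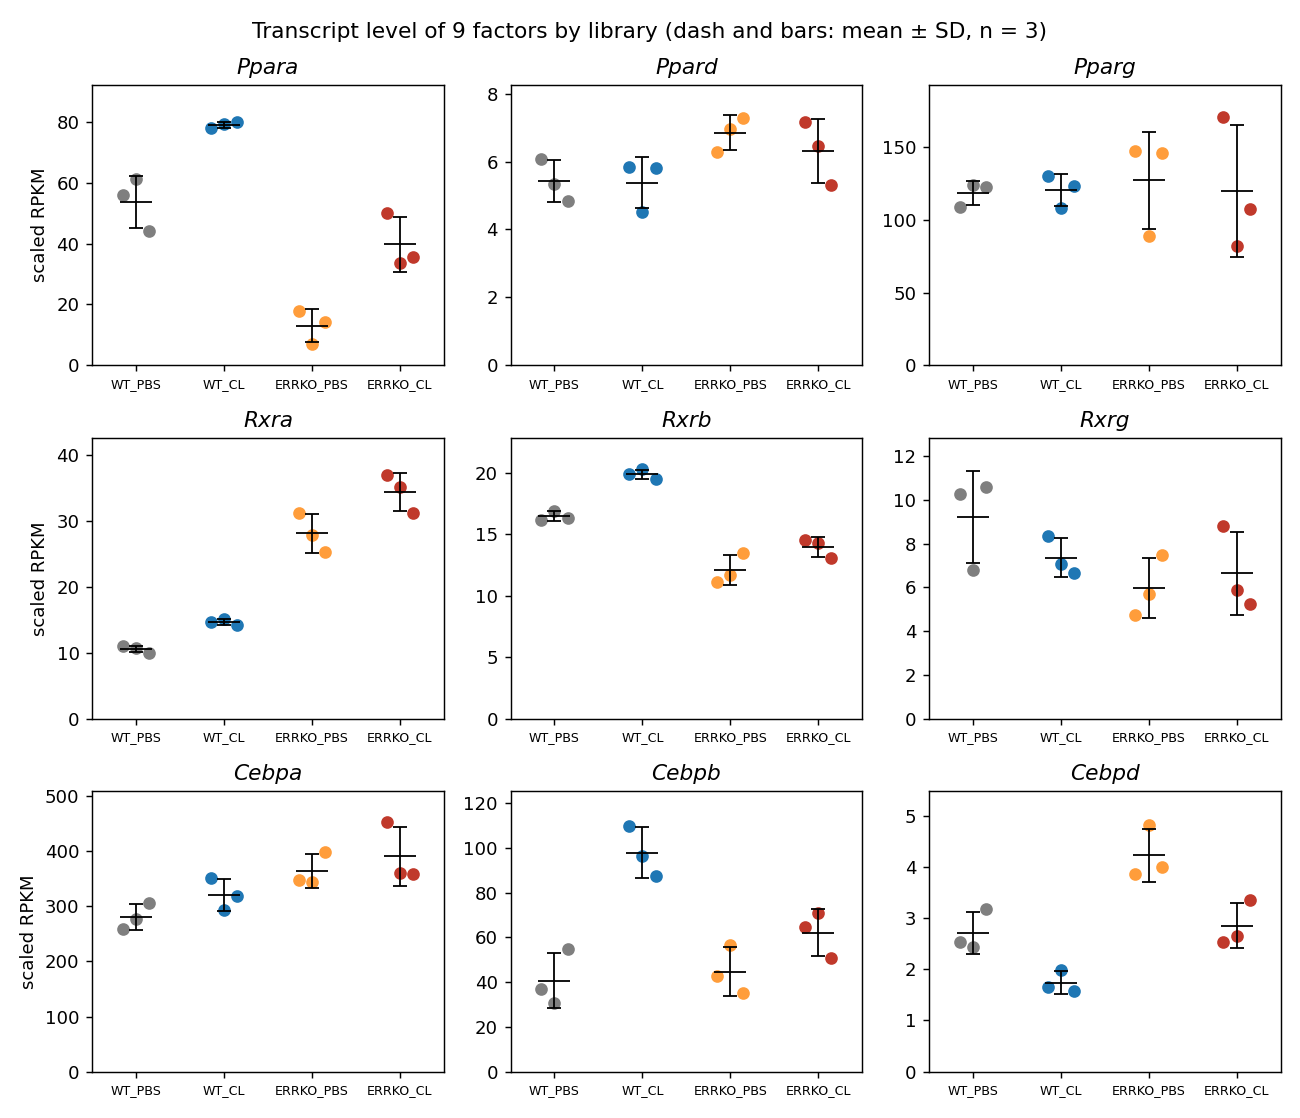
Scaled RPKM (y axis, linear from 0, a separate range in each panel) of the 9 genes in each of the 12 libraries (points) by group (x axis), with the mean and SD of 3 libraries (dash and bars). Ppara is lowest in ERRKO_PBS (7.02 to 17.7) and highest in WT_CL (78.0 to 79.9), the Rxra points of both ERRKO groups (25.3 to 36.9) lie above all WT points (9.97 to 15.1), and Cebpb is highest in WT_CL (87.4 to 110).

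By limma with Benjamini-Hochberg adjustment over all genes tested, 3 of the 9 genes were higher in ERRKO_PBS than in WT_PBS (Rxra, Cebpa and Cebpd), where 15.8% of all genes tested were higher, and 2 were lower (Ppara and Rxrb), where 18.4% were. With CL316,243 in both genotypes, 2 were higher in ERRKO (Rxra and Cebpd; 19.8% of all genes) and 3 were lower (Ppara, Rxrb and Cebpb; 21.6%). In WT mice 3 of the 9 rose with CL316,243 (Rxra, Rxrb and Cebpb; 17.9%) and 1 fell (Cebpd; 12.6%). In ERRKO mice 1 rose (Ppara; 6.68%) and 1 fell (Cebpd; 3.62%). On the deposited scale the counts were 6 higher (66.3% of all genes) and 1 lower (6.22%) for genotype under PBS, and 6 higher (70.5%) and 0 lower (6.62%) under CL316,243. On that scale they were 1 higher (7.2%) and 2 lower (38.1%) for CL316,243 in WT, and 1 higher (3.23%) and 1 lower (13.7%) in ERRKO. With 9 genes these shares are too coarse to set the group apart from all genes, and the individual genes follow.

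None of the 9 genes passed the test for a difference between genotypes in the response to CL316,243, which 3.89% of all genes passed. By limma 2 of the 9, Ppara and Cebpb, had an unadjusted p under 0.05, and edgeR and DESeq2 on the recovered reads called 0 each. The response of Ppara was 1.08 ± 0.38 (log2, SE) larger in ERRKO than in WT (adjusted p = 0.14) and that of Cebpb was smaller by -0.81 ± 0.31 (adjusted p = 0.18). Without WT_PBS library 3 the Cebpb difference was -1.04 with an adjusted p of 0.0394. The other 7 estimates lay between -0.17 and 0.42.

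**Figure D2:**
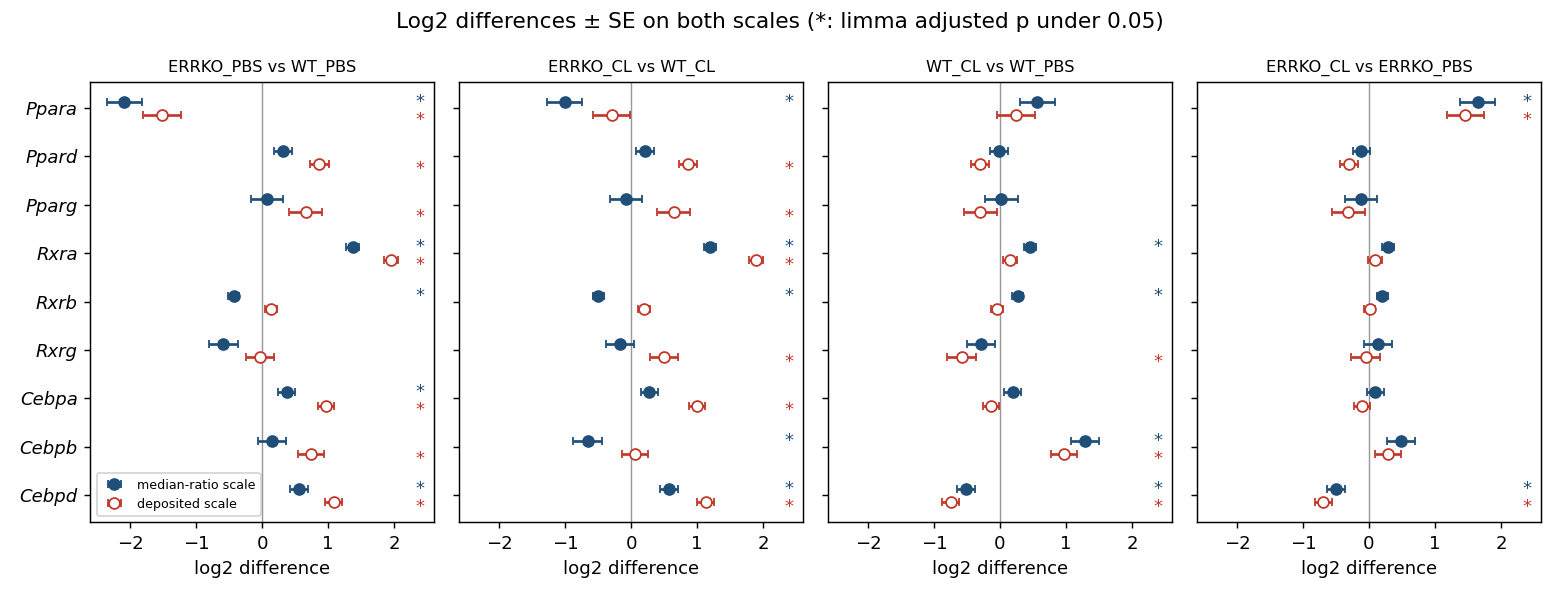
Log2 differences with their SE (x axis) of the 9 genes (y axis) in the 4 comparisons, on the median-ratio scale (filled) and the deposited scale (open); an asterisk marks a limma adjusted p under 0.05. Ppara and Rxra keep their sign on both scales in both genotype comparisons, while Rxrb lies at -0.43 and -0.50 on the first scale and at 0.14 and 0.20 on the second.

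Ppara was the only PPAR gene called in any comparison on the median-ratio scale. Its level was 55.8, 61.1 and 44.3 scaled RPKM in the WT_PBS libraries and 17.7, 7.02 and 14.2 in the ERRKO_PBS libraries. All 3 ERRKO_PBS libraries lay below all 3 WT_PBS libraries, with library 2 the lowest. The difference was -2.09 ± 0.27 on the log2 scale, which is 4.26-fold lower (adjusted p = 7.73e-05), and -1.51 on the deposited scale. After CL316,243 the levels were 78.0, 79.4 and 79.9 in WT_CL and 50.02, 33.7 and 35.4 in ERRKO_CL, again without overlap. The difference was -1.01 ± 0.27, or 2.01-fold lower (adjusted p = 0.00929). It was -0.30 on the deposited scale (adjusted p = 0.352) and after quantile normalization -0.73 (adjusted p = 0.0679), so this call holds on the median-ratio scale and not on those scales.

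With CL316,243 Ppara rose 3.14-fold in ERRKO mice (1.65 ± 0.27, adjusted p = 0.00342), and all 3 ERRKO_CL libraries lay above all 3 ERRKO_PBS libraries. In WT mice the 3 treated libraries also lay above the 3 untreated ones, with a difference of 0.57 ± 0.27 that missed the threshold (adjusted p = 0.129). Without ERRKO_PBS library 2 the adjusted p was 0.021. Fitted on the WT groups alone it was 0.0142. The groups thus fall in the order ERRKO_PBS, ERRKO_CL, WT_PBS and WT_CL. ERRKO_CL (33.7 to 50.02) and WT_PBS (44.3 to 61.1) overlap in their ranges, and no other neighbours in that order do. The summed brown adipocyte markers given above stand in the same order, with no overlap between groups, and their part in the result was not tested.

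Pparg, the receptor that fat cells require, showed no call on the median-ratio scale in any comparison. Its levels were 109, 124 and 122 in WT_PBS, 130, 108 and 123 in WT_CL, 147, 88.8 and 146 in ERRKO_PBS, and 170, 81.9 and 107 in ERRKO_CL. The 4 groups overlapped, and library 2 was the lowest of both ERRKO groups. The genotype difference was 0.07 (95% interval -0.46 to 0.60, adjusted p = 0.85) under PBS and -0.07 (-0.60 to 0.46, adjusted p = 0.847) under CL316,243. Both were called as deposited, at 0.66 (adjusted p = 0.0326) and 0.64 (adjusted p = 0.0339), close to the shift of the median gene on that scale.

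Ppard was 6.08, 5.33 and 4.85 in WT_PBS, 5.83, 4.50 and 5.80 in WT_CL, 6.29, 6.97 and 7.29 in ERRKO_PBS, and 7.16, 6.47 and 5.31 in ERRKO_CL. The ERRKO_PBS libraries all lay above the WT_PBS libraries, and the CL groups overlapped. The difference was 0.32 ± 0.13 (adjusted p = 0.0829) under PBS and 0.21 ± 0.13 (adjusted p = 0.22) under CL316,243, neither past the threshold. Both were called on the deposited scale, at 0.87 each.

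Rxra, the RXR that partners PPARγ in fat cells, had the smallest adjusted p for genotype of the 9 genes under both treatments. It stood at 11.0, 10.6 and 9.97 in WT_PBS and at 31.1, 27.9 and 25.3 in ERRKO_PBS. In the CL groups it stood at 14.7, 15.1 and 14.1 in WT and at 36.9, 35.1 and 31.3 in ERRKO. Every ERRKO library lay above every WT library. Rxra was 2.59-fold higher under PBS (1.37 ± 0.09, adjusted p = 4.25e-07) and 2.3-fold higher under CL316,243 (1.2 ± 0.09, adjusted p = 8.49e-07), and both calls held in all alternatives run. With CL316,243 it rose 1.38-fold in WT (0.46 ± 0.09, adjusted p = 0.00314), which the deposited scale did not call (0.15, adjusted p = 0.263). In ERRKO the corresponding difference was 0.29 ± 0.09 (limma adjusted p = 0.0685, DESeq2 adjusted p = 0.0274), and the 2 ERRKO groups did not overlap. Its order was WT_PBS, WT_CL, ERRKO_PBS and ERRKO_CL, with no overlap between neighbours.

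Rxrb, the most abundant RXR in the WT libraries, was 16.1, 16.9 and 16.3 in WT_PBS, 19.9, 20.3 and 19.5 in WT_CL, 11.1, 11.7 and 13.5 in ERRKO_PBS, and 14.5, 14.3 and 13 in ERRKO_CL. The ERRKO libraries all lay below the WT libraries. The genotype difference was -0.43 ± 0.08 under PBS (adjusted p = 0.00173) and -0.50 ± 0.08 under CL316,243 (adjusted p = 0.000478), that is 1.35-fold and 1.41-fold lower. On the deposited scale the direction turned, to 0.14 (adjusted p = 0.172) and 0.20 (adjusted p = 0.0613), so Rxrb was lower relative to the median gene only. With CL316,243 it was 1.2-fold higher in WT (0.27 ± 0.08, adjusted p = 0.0302). That call was lost without any 1 of WT_PBS library 1 or 2 or of the 3 WT_CL libraries (adjusted p 0.0554 to 0.0842) and after quantile normalization (0.099), and on the deposited scale the difference was -0.05. Its order was ERRKO_PBS, ERRKO_CL, WT_PBS and WT_CL, and only the 2 ERRKO groups overlapped. This is also the order of the summed brown adipocyte markers.

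Rxrg, an RXR of muscle and nervous tissue as well as fat, was 10.3, 6.79 and 10.6 in WT_PBS, 8.35, 7.08 and 6.65 in WT_CL, 4.75, 5.67 and 7.45 in ERRKO_PBS, and 8.79, 5.90 and 5.22 in ERRKO_CL. The groups overlapped in every comparison. The difference between genotypes under PBS was -0.58 ± 0.21 (adjusted p = 0.052). It passed the threshold without WT_PBS library 2 (0.0175), ERRKO_PBS library 3 (0.0271), ERRKO_CL library 1 (0.0298) or ERRKO_CL library 3 (0.0484), and by DESeq2 on the recovered reads (0.0279). It also passed after quantile normalization (0.0435), with a filter at a mean RPKM of 2 (0.0464) and with a robust limma fit (0.0496). The same held without both ERRKO libraries 3 (0.0242). As deposited it was -0.03. Differences called on the deposited scale alone were 0.50 for genotype under CL316,243 (adjusted p = 0.0494; -0.17 and adjusted p = 0.572 on the median-ratio scale) and -0.58 for CL316,243 in WT (adjusted p = 0.0434; -0.29 and adjusted p = 0.341). Summed muscle markers were highest in ERRKO_PBS library 3 (2703), which held the highest Rxrg of its group. They were lowest in WT_PBS library 2 (5.99), which held the lowest Rxrg of its group, while WT_PBS library 3 (10.5) held the highest. In the CL groups the order was the other way. The most muscle markers were in WT_CL library 3 (330) and ERRKO_CL library 3 (1407), which held the lowest Rxrg of their groups. The part of muscle in these values was not tested beyond the fit with muscle markers as a covariate, in which Rxrg was not called.

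Cebpa, the factor that maintains the mature fat cell, was 260, 277 and 306 in WT_PBS, 351, 293 and 320 in WT_CL, 348, 344 and 399 in ERRKO_PBS, and 453, 360 and 359 in ERRKO_CL. The ERRKO libraries lay above the WT libraries of the same treatment. The difference under PBS was 0.37 ± 0.13 (1.29-fold, adjusted p = 0.0402) and 0.96 as deposited (adjusted p = 3.0e-05). The call was lost without any 1 of 7 libraries, namely WT_PBS 1 and 2, WT_CL 3, ERRKO_PBS 1, 2 and 3 and ERRKO_CL 3 (adjusted p 0.0501 to 0.145), with no filter (0.0619), with only the groups compared (0.0977) and with muscle markers as a covariate (0.119). It was also lost without both ERRKO libraries 3 (0.170). Under CL316,243 the difference was 0.28 ± 0.13 (adjusted p = 0.102), but it was called after quantile normalization (0.93, adjusted p = 4.37e-05) and on the deposited scale (0.99, adjusted p = 1.44e-05). CL316,243 gave no call for Cebpa in either genotype (0.19, adjusted p = 0.285, and 0.10, adjusted p = 0.704).

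Cebpb, which signals through cAMP are known to induce, was 36.9, 30.7 and 54.6 in WT_PBS and 110, 96.3 and 87.4 in WT_CL. All treated WT libraries lay above the untreated ones, and the rise was 2.44-fold (1.29 ± 0.22, adjusted p = 0.00104; 0.97 on the deposited scale). In ERRKO it was 42.6, 56.5 and 35.2 under PBS and 64.6, 71.1 and 50.8 under CL316,243, and these ranges overlapped. The difference was 0.48 ± 0.22 (adjusted p = 0.187). Among treated mice Cebpb was 1.58-fold lower in ERRKO (-0.66 ± 0.22, adjusted p = 0.0282), with no overlap. That call was lost without WT_CL library 1 (0.0945), WT_CL library 2 (0.0605), ERRKO_CL library 1 (0.0502) or ERRKO_CL library 3 (0.112), with muscle markers as a covariate (0.122), after quantile normalization (0.151) and with no filter (0.0578). It was also lost without both ERRKO libraries 3 (0.0958). The same difference was 0.06 on the deposited scale. Summed muscle markers were 10.9 to 330 in WT_CL and 174 to 1407 in ERRKO_CL. Between the PBS groups the Cebpb difference was 0.15 (95% interval -0.32 to 0.62, adjusted p = 0.629), and 0.73 on the deposited scale, where it was called (adjusted p = 0.00524). WT_CL stood apart from the other 3 groups, which overlapped with their neighbours in the order WT_PBS, ERRKO_PBS and ERRKO_CL.

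Cebpd, the least abundant of the 9, was 2.53, 2.43 and 3.18 in WT_PBS, 1.66, 1.99 and 1.57 in WT_CL, 3.86, 4.81 and 4.00 in ERRKO_PBS, and 2.53, 2.66 and 3.35 in ERRKO_CL. The ERRKO libraries lay above the WT libraries of the same treatment, and the treated libraries below the untreated libraries of the same genotype. It was 1.47-fold higher in ERRKO under PBS (0.56 ± 0.14, adjusted p = 0.00765) and 1.49-fold higher under CL316,243 (0.58 ± 0.14, adjusted p = 0.00505). With CL316,243 it fell by 0.52 on the log2 scale in WT (adjusted p = 0.0137) and by 0.50 in ERRKO (adjusted p = 0.0385). The WT call was lost without WT_CL library 3 (0.053). The ERRKO call was lost without any 1 of 7 libraries, namely WT_CL 1 and 3, ERRKO_PBS 1, 2 and 3 and ERRKO_CL 1 and 2 (0.0508 to 0.123), and after quantile normalization (0.0532), with no filter (0.0655) and with only the groups compared (0.0611). It was also lost without both ERRKO libraries 3 (0.0622). The order was WT_CL, WT_PBS, ERRKO_CL and ERRKO_PBS, and only WT_PBS and ERRKO_CL overlapped. Sums of stromal markers stood in the same order of groups, and macrophage sums were lower with CL316,243. The summed stromal and preadipocyte markers ran from 255 to 382 in WT_PBS and from 628 to 662 in ERRKO_PBS, and after CL316,243 from 214 to 231 in WT and from 364 to 470 in ERRKO. The summed macrophage markers ran from 199 to 406 and from 208 to 244 in WT_PBS and ERRKO_PBS, and from 112 to 147 and from 122 to 168 in WT_CL and ERRKO_CL, with 6 of 6 called lower in WT_CL than in WT_PBS and 1 of 6 in ERRKO. Of the 6 stromal markers, 1 was called higher in ERRKO_PBS, 4 in ERRKO_CL, and 3 lower with CL316,243 in WT and 2 in ERRKO; none of the 6 in either list was at 0 in a whole group, and their part in the result was not tested.

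The exons of Cebpb share 20.7% of their bases with Tmem189 and those of Cebpd 15% with Spidr, both on the opposite strand, and those of Cebpa share 1.93% with Gm45091. The sources used here do not say whether strand was used in counting, so reads from the shared bases cannot be told apart. The exons of the other 6 genes shared no base with another gene (GENCODE M21, GRCm38).

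The share of a gene in the summed RPKM of its 3-gene family is taken within a library and does not depend on how libraries are scaled to each other. Ppara made up 30.2% of PPAR RPKM in WT_PBS and 38.7% in WT_CL, against 8.56% in ERRKO_PBS and 24.5% in ERRKO_CL. Pparg made up the most of the rest, with 66.7% and 58.7% in WT and 86.5% and 71.5% in ERRKO, each time PBS before CL316,243. Averaged over treatments, the share of Ppara was lower by -17.9 percentage points in ERRKO and that of Pparg was 16.3 points higher. Averaged over genotypes, CL316,243 went with 12.2 points more Ppara and -11.5 points of Pparg. Each of these 4 differences had p = 0.005 in an exact two-sided permutation test within strata, the smallest p this design can give, and 0.01 after adjustment over the 18 shares tested. The ratio of Pparg to Ppara was 2.25 in WT_PBS and 10.4 in ERRKO_PBS, and 1.52 in WT_CL and 2.95 in ERRKO_CL.

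In the RXR family the leading gene differed between genotypes. Rxra made up 29.1% and 35% in WT_PBS and WT_CL, against 60.9% and 62.7% in ERRKO_PBS and ERRKO_CL. Rxrb made up 45.6% and 47.5% in WT and 26.2% and 25.4% in ERRKO. Averaged over treatments, the genotype differences were 29.7 points for Rxra, -20.7 for Rxrb and -9.0 for Rxrg (exact permutation p = 0.005 and adjusted p = 0.01 for each). The ratio of Rxra to Rxrb was 0.640 in WT_PBS and 0.737 in WT_CL, and 2.35 in ERRKO_PBS and 2.47 in ERRKO_CL. No library of one genotype reached the ratio of any library of the other, the WT libraries lying between 0.611 and 0.746 and the ERRKO libraries between 1.87 and 2.80. Averaged over genotypes, CL316,243 changed no RXR share past the threshold (exact permutation p = 0.065 for Rxra, 0.69 for Rxrb and 0.075 for Rxrg). The unadjusted permutation p for Rxra was 0.01 without ERRKO_PBS 1 and 0.04 on recovered reads. For Rxrg it was 0.04 without WT_PBS 2, 0.025 without ERRKO_PBS 1 and 0.04 without ERRKO_CL 1.

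In the C/EBP family Cebpa made up 86.8% in WT_PBS and 76.3% in WT_CL, against 88.1% in ERRKO_PBS and 85.7% in ERRKO_CL. Cebpb made up 12.4% and 23.3% in the WT groups and 10.9% and 13.7% in the ERRKO groups. Averaged over genotypes, the share of Cebpb was 6.82 points higher with CL316,243 (exact permutation p = 0.015, adjusted p = 0.0245). That of Cebpa changed by -6.42 points (exact permutation p = 0.02, adjusted p = 0.03). The Cebpb share was 10.9 points higher in WT and 2.79 in ERRKO, where the libraries overlapped, and the Cebpa share changed by -10.4 and -2.41 points. Averaged over treatments, the genotype differences were smaller. That for Cebpb was -5.52 points (exact permutation p = 0.025), from -1.49 under PBS and -9.55 under CL316,243. That for Cebpa was 5.32 points (exact permutation p = 0.035), from 1.30 and 9.33. That for Cebpa was lost without WT_PBS 3, ERRKO_PBS 3, ERRKO_CL 1 or any 1 WT_CL library (p 0.05 to 0.07), and that for Cebpb without WT_PBS 3 or ERRKO_PBS 3 (p 0.05 and 0.06).

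**Figure D3:**
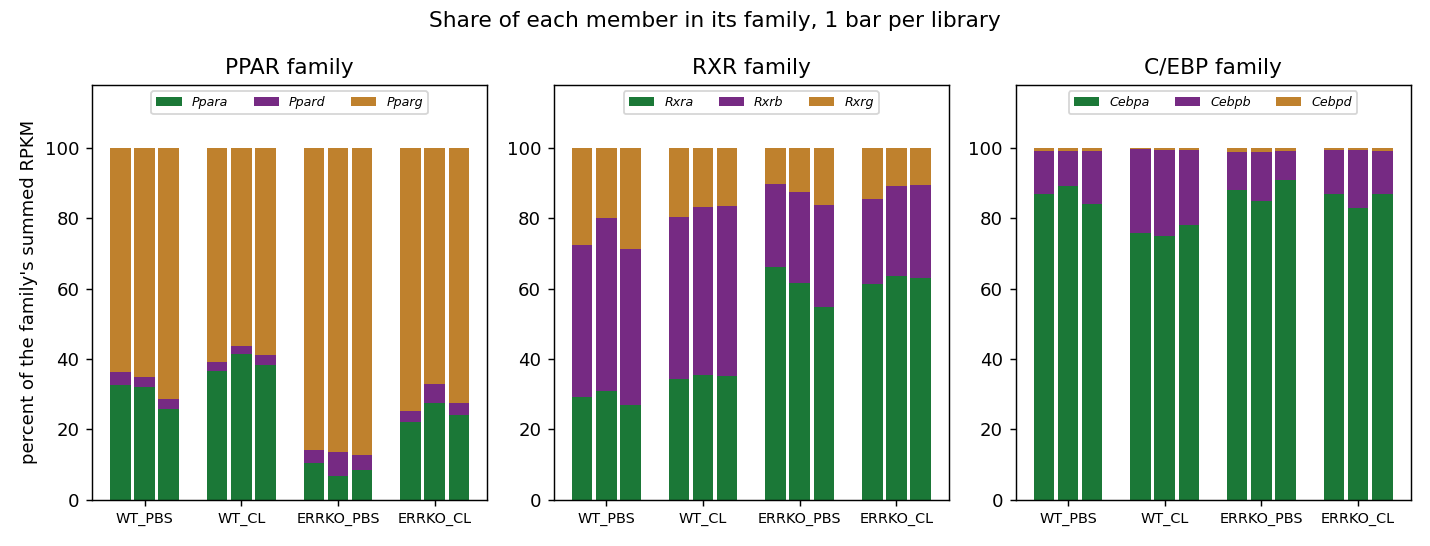
Percent of the summed RPKM of each family (y axis) held by each of its 3 genes, with 1 bar per library grouped by genotype and treatment (x axis). The Ppara part is smallest in ERRKO_PBS (mean 8.56%), the Rxra part is larger in every ERRKO bar than in any WT bar, and the Cebpb part is largest in WT_CL (mean 23.3%).

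Genes known to be regulated by PPARα in fatty acid oxidation were more often called lower than higher in ERRKO, and more often higher than lower with CL316,243. Of the 21 tested of 25 listed, 11 were lower and 4 higher in ERRKO_PBS than in WT_PBS (18.4% and 15.8% of all genes). Under CL316,243, 10 were lower and 3 higher in ERRKO_CL than in WT_CL (21.6% and 19.8%). The medians were -0.47 and -0.62 against 0.01 for all genes. As deposited, 9 were lower and 8 higher under PBS (6.22% and 66.3% of all genes). On that scale 9 were called each way under CL316,243 (6.62% lower and 70.5% higher). Cpt1b, which passes fatty acids into mitochondria and is also a known ERR target, was 207 ± 15.7 in WT_PBS and 14.8 ± 2.71 in ERRKO_PBS (-3.78 ± 0.14, adjusted p = 5.93e-09). The carnitine carrier Slc25a20 was 133 ± 8.99 and 46.0 ± 1.07 (-1.52 ± 0.09), and Acadl and Hadhb, enzymes of β-oxidation, differed by -1.86 and -2.56. ERRα and ERRγ themselves drive genes of fatty acid oxidation, as given above, and not Cpt1b alone. The parts of lower Ppara and of ERR loss in the differences of this list were not tested. With CL316,243, 14 of the 21 rose and 2 fell in WT (17.9% and 12.6% of all genes), and 14 rose and 0 fell in ERRKO (6.68% and 3.62%). The medians were 0.84 and 1.00 against 0.01 and 0.02 for all genes. Slc25a20 rose by 1.55 in WT and 1.60 in ERRKO, ending at 392.1 ± 23.4 and 141 ± 12.9. Other rises were Acaa1b (4.06; its reads may be shared with its near copy Acaa1a), Cpt2 (1.52) and Hadha (1.26) in WT, and Cpt1b (1.30), Acadvl (1.26) and Acadl (1.17) in ERRKO. Cpt1b is also the muscle form of its enzyme, and muscle markers varied as given above; their part was not tested.

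Genes known to be regulated by PPARγ in fat cells were called in both directions between genotypes, more often higher in ERRKO. Of 20 tested, 8 were higher and 3 lower in ERRKO_PBS (15.8% and 18.4% of all genes), and 11 higher and 3 lower in ERRKO_CL (19.8% and 21.6%). The medians were 0.32 and 0.55 against 0.01 for all genes. As deposited, 15 and 17 were higher and 1 lower each time. On that scale 66.3% and 70.5% of all genes were higher and 6.22% and 6.62% lower. Retn, which encodes the hormone resistin, was 18.3 ± 11.4 in WT_PBS and 134 ± 26.4 in ERRKO_PBS (2.99 ± 0.32, adjusted p = 2.14e-05). Gpd1, which makes glycerol 3-phosphate, was 1014 ± 102 and 383 ± 12.8 (-1.40 ± 0.16). Of the 6 general adipocyte markers, most of which this list also holds, 4 were called higher in ERRKO_PBS and 5 in ERRKO_CL, and 0 lower, with medians of 0.66 and 0.90; their part in the result was not tested. The lipid droplet genes Plin1 and Cidec were higher by 0.80 and 0.85. Under CL316,243 Gpd1 differed by -2.40, Retn by 3.70, Cfd (adipsin) by 2.75 and Cidec by 1.05. With CL316,243, 8 rose and 2 fell in WT (17.9% and 12.6% of all genes), and 7 rose and 0 fell in ERRKO (6.68% and 3.62%). The medians were 0.23 and 0.48 against 0.01 and 0.02 for all genes. As deposited, 8 rose and 7 fell in WT (7.2% and 38.1% of all genes). Agpat2 (2.70), Gpd1 (1.30), Dgat1 (1.12) and Acsl1 (1.01), which build or activate lipid, rose in WT, and Acsl1 (1.24), the lipase gene Lpl (1.10), Cidec (1.03) and Dgat1 (0.99) rose in ERRKO.

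**Figure D4:**
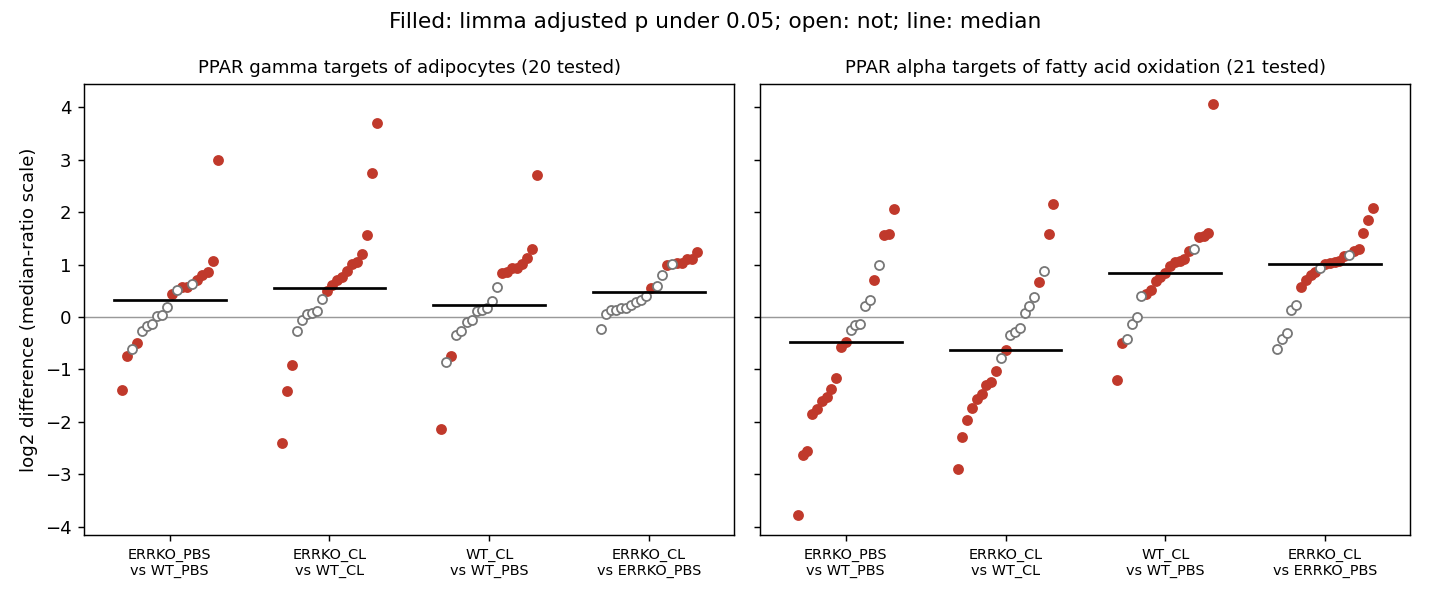
Log2 difference (y axis, median-ratio scale) of each of the 20 tested PPARγ targets (left) and 21 tested PPARα targets (right) in the 4 comparisons (x axis), filled where limma gave an adjusted p under 0.05, with a line at the median. In the right panel the medians are -0.47 and -0.62 for genotype and 0.84 and 1.00 for CL316,243; in the left panel they are 0.32, 0.55, 0.23 and 0.48.

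Partners and cofactors of the 9 genes were called in both directions between genotypes. Counts are read against all genes, of which 15.8% were higher and 18.4% lower under PBS, and 19.8% and 21.6% under CL316,243. With CL316,243, 17.9% of all genes rose and 12.6% fell in WT, and 6.68% and 3.62% in ERRKO. On the deposited scale 66.3% of all genes were higher and 6.22% lower in ERRKO under PBS, and 70.5% and 6.62% under CL316,243. With CL316,243, 7.2% rose and 38.1% fell in WT on that scale, and 3.23% and 13.7% in ERRKO. Of 9 tested RXR partner receptors, 3 were higher and 3 lower in ERRKO_PBS and 2 and 2 in ERRKO_CL. With CL316,243, 2 rose and 1 fell in WT and 0 passed in ERRKO, while as deposited 1 rose and 4 fell in WT and 0 and 1 in ERRKO. The orphan receptor Nr4a1 differed by -3.36 ± 0.31 with genotype under PBS and by -2.64 with CL316,243 in WT. The retinoic acid receptor genes Rarb (-1.91 and -1.90) and Rarg (0.80 and 0.78) differed in opposite directions in both genotype comparisons. Of 20 coactivators and corepressors, 5 were higher and 1 lower in ERRKO_PBS and 5 and 3 in ERRKO_CL, and on the deposited scale 16 and 17 were higher and 0 lower. Nrip1, whose product RIP140 represses energy-burning genes in fat, was 2.33 ± 0.285 in WT_PBS and 12.3 ± 2.52 in ERRKO_PBS (2.17 ± 0.32, adjusted p = 0.00025) and 2.02 higher under CL316,243. Tbl1x was 0.77 and 0.72 higher and Ncor1, a corepressor, 0.51 and 0.64 higher. With CL316,243, 4 cofactors rose and 1 fell in WT (Hdac3, 0.50; Tbl1xr1, 0.44; Ncoa1, -0.46; Lpin1, 0.59). Of these Hdac3 (0.18), Tbl1xr1 (0.14) and Lpin1 (0.27) were not called on the deposited scale. Tbl1xr1 alone rose in ERRKO (0.51). As deposited, 0 cofactors rose and 5 fell with CL316,243 in WT, and 1 rose and 2 fell in ERRKO.

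Of 22 other adipogenic transcription factors tested, 8 were higher and 2 lower in ERRKO_PBS and 6 and 2 in ERRKO_CL, beside the same shares of all genes (15.8% and 18.4%, then 19.8% and 21.6%). As deposited, 19 and 18 were higher and 0 lower, where 66.3% and 70.5% of all genes were higher and 6.22% and 6.62% lower. Zfp423 (1.56), which marks cells committed to the fat fate, Srebf1 (1.30), which drives lipid synthesis, Klf15 (0.86) and the glucocorticoid receptor gene Nr3c1 (0.65) were higher under PBS. Under CL316,243 Klf15 (1.00) and Ebf1 (0.86) were higher, and Ebf2 (-0.71), a factor of brown fat identity, and Ebf3 (-0.52) were lower. Neither was called on the deposited scale, where Ebf2 was at -0.0099 (adjusted p = 0.955) and Ebf3 at 0.17. With CL316,243, 8 rose and 2 fell in WT (17.9% and 12.6% of all genes), among them Ebf2 (0.97), Ebf3 (0.69), Nr3c1 (0.44) and Ebf1 (-0.77). In ERRKO Nfia alone rose (0.43), where 6.68% of all genes rose. Nr3c1 (0.12) and Nfia (0.24) were not called on the deposited scale. There 3 of the 22 rose and 4 fell with CL316,243 in WT (7.2% and 38.1% of all genes). In ERRKO 0 rose and 4 fell on that scale (3.23% and 13.7%). Of 4 tested further genes of the C/EBP group, Cebpzos was lower in both genotype comparisons (-0.93 and -0.72, the latter -0.035 and not called as deposited), Cebpg was higher in ERRKO_PBS (0.44) and rose with CL316,243 in WT (0.71), and Ddit3 (CHOP) fell there by 0.72 on the log2 scale. Of 7 tested genes that carry or make receptor ligands, 2 were higher and 2 lower in each genotype comparison. Fabp3, which carries fatty acids in muscle and brown fat, was 998 ± 26.9 in WT_PBS and 24.0 ± 29.2 in ERRKO_PBS (-6.05 ± 0.63), while the retinol carrier gene Rbp4 (2.61) and Aldh1a1 (1.19), which makes retinoic acid, were higher. With CL316,243 Rbp4 rose by 2.66 in WT and 1.13 in ERRKO.

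For each of the 9 genes, the 2 others with the most similar pattern were taken by Pearson's r of log2 scaled RPKM over the 12 libraries, among the 7152 or 7153 genes whose mean RPKM reached 5. The 12 libraries share the 4 groups, so a high r describes a common group pattern. The closest were Fam69b (0.945) and Qk (0.944) to Ppara, Mira (0.910) and Ski (0.896) to Ppard, and Msmo1 (0.884) and Rmnd5b (0.758) to Pparg. For the RXR genes they were Bcar3 (0.983) and Ccdc50 (0.979) to Rxra, St6galnac6 (0.985) and Ndufv3 (0.979) to Rxrb, and Hoxa5 (0.928) and Sox18 (0.917) to Rxrg. For the C/EBP genes they were Loxl1 (0.975) and Cdkn2c (0.961) to Cebpa, 2010320M18Rik (0.952) and Fam32a (0.952) to Cebpb, and Cast (0.984) and Sun2 (0.968) to Cebpd. Among the 9 genes themselves Ppara went most closely with Rxrb (0.870) and most inversely with Cebpd (-0.925), and Rxra went with Cebpa (0.813). Pparg had the lowest closest match of the 9, and its second match was the lowest of all those listed.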

How the data were processed

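Expression was measured by RNA sequencing of total RNA in 12 libraries of brown adipose tissue. The authors deposited RPKM per gene and a second table of normalized signal, gene counts divided by library factors. The submitters' processing notes name edgeR, STAR 2.3.0, cutadapt and bcl2fastq 2.16.0.10, and the builds mm9 and mm10, with no role for either build. Of the values in that table, 100% came out as whole reads within 0.01, which gave depth and the reads for count tests; 9 stray cells there were not used.

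From the deposited RPKM, genes with a mean of at least 0.5 over the libraries were scaled by median-of-ratios size factors (0.705 to 1.37) and tested as log2(scaled RPKM + 0.5) with limma 3.58.1 (R 4.3.3). The fit had 4 group means, a trended prior and 8 residual degrees of freedom, with Benjamini-Hochberg adjustment and a threshold of 0.05. The pseudocount understates changes of low genes. Family shares were compared by exact permutation within strata. edgeR 4.0.16 and DESeq2 1.42.0 on recovered reads, other scalings, filters and pseudocounts, a replicate block, a muscle covariate and leaving out libraries were alternatives. The fit was tested on simulated data. Groups came from the sample titles. The named genes were the 9 members, the 2 closest genes to each, Esrra and Esrrg, and up to 4 called genes per list and comparison by smallest p. The members, lists and tests were chosen with earlier results of these data known.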

Additional observations from a re-analysis of the deposited data

How the results depend on the processing

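On the deposited scale the genes called of 12249 were 8877 for genotype under PBS, 9451 under CL316,243 and 2068 for CL316,243 in ERRKO, against 4189, 5078 and 1261. Signs turned there for Rxrb (0.14 under PBS, 0.20 under CL316,243, -0.048 for CL316,243 in WT), Pparg (0.64 under CL316,243, -0.30 in WT), Rxrg (0.50, and -0.052 in ERRKO), Cebpb (0.055), Cebpa (-0.13 in WT, -0.10 in ERRKO) and, in the genotype by treatment term, Rxrb (0.056) and Cebpa (0.030). After quantile normalization they turned for Pparg (0.30 under CL316,243, -0.17 in WT) and for the term of Cebpa (0.019) and Cebpd (-0.012), and with a pseudocount of 1 for the term of Cebpd (-0.0071). Without both ERRKO libraries 3 the genes called were 470 for CL316,243 in ERRKO and 216 for the term, and signs turned for Pparg under PBS (-0.049), Ppard (0.041) and Pparg (0.051) with CL316,243 in ERRKO, and for the terms of Ppard (0.058), Pparg (0.033), Rxrb (0.066), Cebpa (0.040) and Cebpd (-0.11). DESeq2 called 823 genes for the term, against 477. With CL316,243 in ERRKO, 1 of the 9 genes and not 2 was called after quantile normalization, with no filter, with only the groups compared and without both libraries 3. As reads and not per length, the share of Rxrb changed by -0.592 points with CL316,243. Those of Ppard (-1.37 points, exact permutation p = 0.02) and Rxra (3.92 points, exact permutation p = 0.04) then had an unadjusted p under 0.05. Beyond fewer genes or libraries, the cause was not tested.

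Leaving out 1 library at a time, genes called ran from 526 (without ERRKO_PBS 1) to 1640 for CL316,243 in ERRKO, and from 225 (without WT_CL 3) to 830 (without WT_PBS 3) for the term. Of the 9 genes, 2 to 5 were called for CL316,243 in WT, 1 to 2 in ERRKO and 0 to 1 for the term. Log2 differences that changed sign were Pparg from -0.057 to 0.31 and Cebpb from -0.033 to 0.38 under PBS, and Pparg from -0.36 to 0.17 under CL316,243. With CL316,243 in WT they were Ppard from -0.081 to 0.10 and Pparg from -0.036 to 0.10, and in ERRKO Pparg from -0.40 to 0.13, Rxrg from -0.073 to 0.29 and Cebpa from -0.014 to 0.17. For the term they were Ppard from -0.22 to 0.011, Pparg from -0.42 to 0.11, Rxrb from -0.12 to 0.016 and Cebpd from -0.090 to 0.11. The share of Rxrb with CL316,243 ran from -0.0791 to 1.49 points. None of these was called on the main scale, apart from the counts.

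The main fit did not pair libraries by replicate number, and whether the numbers mark pairs was not tested. Of the 18 same-number pairs, 7 had a correlation of deviations over 0.1 (range -0.389 to 0.454), and 7 of 12 libraries were closest to their own number. With the replicate block, calls were lost for Cebpa under PBS (adjusted p = 0.0536), Rxrb in WT (0.0523) and Cebpd in ERRKO (0.0514), and Rxra in ERRKO was called (0.0463); no other call of the 9 genes changed. The fit of only the groups compared gives no term. A low number of reads limits Cebpd most, with 42 reads in its lowest library.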
